A study of Mus musculus with 8 samples.

Results

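The genes described here are 9 transcription factors of epidermal commitment and differentiation, Trp63, Tfap2a, Grhl1, Grhl2, Grhl3, Klf4, Klf5, Ovol1 and Zfp750. They were chosen by symbol, and all 9 were present among the 23433 gene symbols counted and passed the filter on low counts that left 14176 genes for testing. The samples were 8 RNA-seq libraries from the skin of 4 newborn mouse pups (postnatal day 0.5, mixed strain background), and each pup gave 2 sorted cell populations. The sort kept cells with K14RFP, a red reporter under keratin 14 control, and with high alpha6 integrin, a surface protein of basal keratinocytes. High P-cadherin marked the hair germ, the budding epithelium of a new follicle, and low P-cadherin marked the interfollicular epidermis (IFE), the surface epithelium between follicles. The transgenic animals were pups 4 and 6, with genotype pTRE2-200bcl/K14rtTA. In them a miR-200 construct sits behind a promoter that needs rtTA and doxycycline, and K14rtTA supplies rtTA from the keratin 14 promoter. Control pup 3 carried K14rtTA alone and control pup 5 carried pTRE2-200bcl alone, so the controls differed from each other in genotype. All dams received doxycycline chow during pregnancy, and each of the 4 groups therefore had n = 2 pups. By its design the transgene is induced in cells that use the keratin 14 promoter, and which cells expressed it was not measured. The miR-200 members it encodes are not named in the sources used here.

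p63, the product of Trp63, is the factor that commits surface ectoderm to stratified epithelium and maintains its basal layer. AP-2 alpha (Tfap2a) and the Krüppel-like factor Klf5 are also active in basal cells, while Klf4, Ovol1, Zfp750, Grhl1 and Grhl3 are known for promoting differentiation and the skin barrier. Grhl2, the remaining grainyhead-like factor, maintains epithelial junction genes. The miR-200 family of microRNAs is known for keeping epithelial cells epithelial by repressing Zeb1 and Zeb2, and it recognises targets through a seed at bases 2 to 8 of the mature microRNA.

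The 5 mature miR-200 sequences are shown because the family has only 2 seeds (in capitals), which differ by 1 base and define the target matches counted in the members. They were taken from RefSeq (assembly GRCm38.p6). miR-200b, miR-429 and miR-200c share one seed, and miR-200a and miR-141 share the other.
miR-200b-3p: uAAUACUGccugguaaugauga
miR-429-3p: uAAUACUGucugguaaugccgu
miR-200c-3p: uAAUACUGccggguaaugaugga
miR-200a-3p: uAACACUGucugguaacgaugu
miR-141-3p: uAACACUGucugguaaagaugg

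The DNA matches to these seeds, CAGTATT and CAGTGTT, were searched on the sense strand of the longest annotated 3′ untranslated region (UTR) of each gene (GRCm38 gene models). They occurred 11 times in 7 of the 9 members, and none of the 11 was followed by an A. One or other match was present in 77.78% of the members and in 30.33% of the 12692 tested genes that had a UTR model. Trp63 and Tfap2a had 3 matches each, Klf4, Klf5, Grhl1, Grhl2 and Zfp750 had 1 each, and Ovol1 and Grhl3 had 0 of either. Longer UTRs held a match more often. The Trp63 UTR of 3064 bases held CAGTATT once, as did 29.58% of UTRs of similar length at least once, and CAGTGTT at 2 places, against 41.29% of those UTRs at least once. The Tfap2a UTR of 1813 bases held CAGTATT at 2 places, against 18.76% of UTRs of similar length at least once. The matches of the 3 factors called lower in the IFE, and that of Grhl1, are printed with their flanks, with the match in capitals.
Trp63, chromosome 16, 25890875 to 25890881: gaaagcatgcaaCAGTATTcccc
Trp63, chromosome 16, 25891514 to 25891520: gggctgtttcagCAGTGTTggtg
Trp63, chromosome 16, 25891648 to 25891654: gtctcctcacacCAGTGTTtagt
Tfap2a, chromosome 13, 40716614 to 40716620: gacattttttatCAGTATTgtga
Tfap2a, chromosome 13, 40716478 to 40716484: ctataagggaatCAGTGTTcacg
Tfap2a, chromosome 13, 40715607 to 40715613: ttttgttcttggCAGTATTtttt
Grhl2, chromosome 15, 37363188 to 37363194: tcaaaacttcctCAGTGTTtaga
Grhl1, chromosome 12, 24616409 to 24616415: ccacctctcctcCAGTGTTtact
Trp63 and Grhl1 are on the plus strand, as is Grhl2, and Tfap2a is on the minus strand. These matches describe letters in the UTR models. No microRNA binding was measured.

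The libraries held 7109871 to 14039583 reads assigned to genes. Rn45s, the ribosomal RNA precursor, made up 30.6% (control pup 3) and 29.0% (transgenic pup 4) of them in 2 IFE libraries and 3.56% to 13.01% elsewhere. Values are counts per library total after TMM scaling, the usual CPM, and a group is given as mean ± SD over its pups. A feature named miR200primary stood at 526 to 797 CPM in the 4 transgenic libraries and at 0.176 to 3.83 CPM in the 4 controls, which matched the genotype labels. The 8 basal keratinocyte markers (Krt14, Krt5, Krt15, Itga6, Itgb4, Col17a1, Lamb3 and Itgb1) were present in every library. Their summed level was 25587 to 29517 CPM in control hair germ, 16512 to 20249 in transgenic hair germ, 32935 to 35587 in control IFE and 16388 to 16598 in transgenic IFE. Cdh3, which encodes P-cadherin, was not called between the sorted populations in control pups (log2 difference 0.22, adjusted p = 0.804) or transgenic pups (0.76, adjusted p = 0.0890). Of 9 hair germ markers, Cdh3 included, 8 lay above 0 in each of these comparisons. Their median was 0.62 in control pups, with 0 called, and 0.76 in transgenic pups, with 3 called higher. Over all genes the medians were -0.04 and 0.02, and 0.00705% and 0.882% were called higher. Markers of immune cells, 16 genes, summed to 134 to 280 CPM in control IFE, with Cd207 at 0. They summed to 3025 to 3863 CPM in transgenic IFE, with Cd3e at 0 in both transgenic libraries. In hair germ the same genes summed to 79.5 to 196 CPM in controls, with Cd3e and Sfpi1 at 0, and 285 to 435 CPM in transgenic pups. The 11 melanocyte markers summed to 21.3 to 24.4 CPM in control IFE against 144 to 166 in transgenic IFE, and to 32.8 CPM in both control hair germ libraries against 154 to 194. Of these, Oca2 was at 0 in every library, and Mlana and Sox10 were at 0 in both control groups. Tyrp1 and Slc45a2 were at 0 in control IFE. In bulk RNA, fewer cells of a type and less RNA per cell cannot be told apart.

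Per kilobase of exon, Klf4 was the most abundant member and Trp63 the next in all 4 groups. The length used was that of all annotated exons merged, 8391 bases for Trp63 (8 transcripts) and 3049 for Klf4 (3 transcripts). A single transcript can be shorter, so the order depends on this choice of length. In CPM Trp63 stood above Klf4 in every group, at 1153 against 667 in control hair germ. In control hair germ Klf4 stood at 219 ± 52.2 CPM per kilobase and Trp63 at 137 ± 13.2. They were followed by Klf5 (81.9 ± 16.8), Tfap2a (56.4 ± 2.08), Ovol1 (26.4 ± 16.1), Grhl2 (25.8 ± 1.47), Zfp750 (10.7 ± 3.23), Grhl3 (5.54 ± 1.10) and Grhl1 (4.62 ± 1.19). The libraries of Ovol1 and Grhl2 overlapped in that order, as did those of Grhl3 and Grhl1, and the other neighbours did not. In control IFE the order was the same except that Ovol1 (45.4 ± 27.3) came before Tfap2a (43.2 ± 0.825). The Ovol1 libraries there spanned 26.1 to 64.6 and overlapped those of Klf5, Tfap2a and Grhl2. In both transgenic groups Grhl1, at 12.3 ± 2.82 in hair germ and 11.3 ± 3.00 in IFE, stood above Grhl3, at 8.54 ± 1.501 and 8.38 ± 1.55. The libraries of those 2 genes did not overlap in transgenic hair germ and did in transgenic IFE. Other neighbours that overlapped in transgenic hair germ were Klf5 with Tfap2a, Grhl2 with Zfp750 and Zfp750 with Grhl1. In transgenic IFE the libraries of Klf5 and Ovol1 overlapped, as did those of Grhl2 with Zfp750 and Zfp750 with Grhl1.

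**Figure D1:**
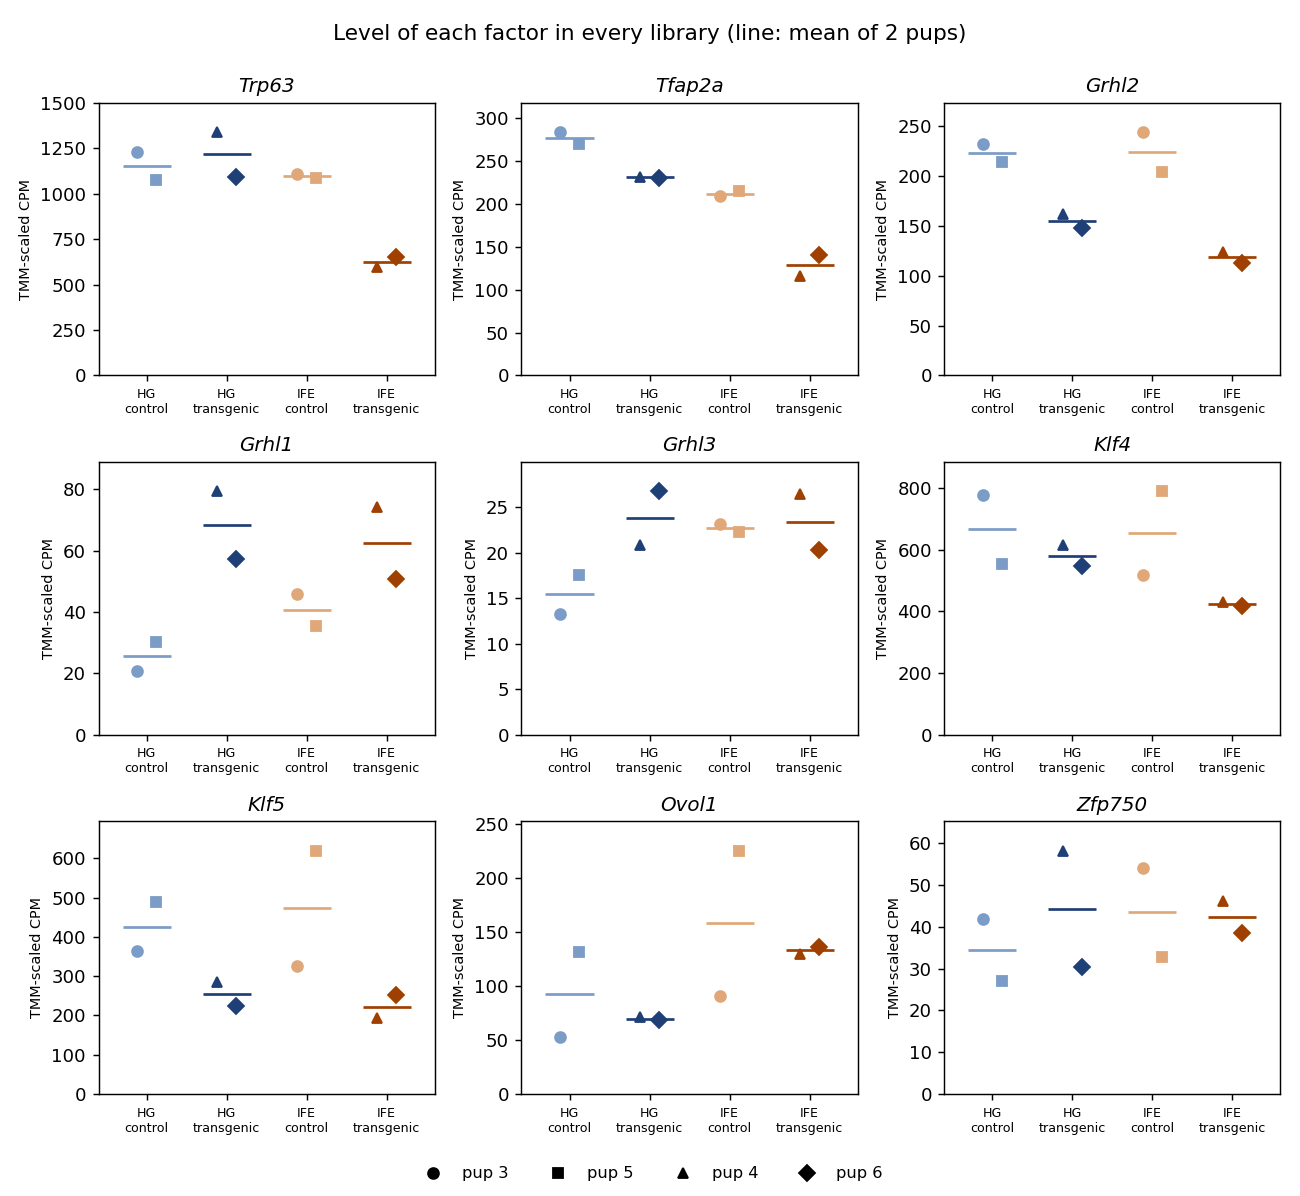
Level of the 9 factors in every library, 1 panel per gene (vertical axis: TMM-scaled CPM; horizontal axis: the 4 groups; points: single pups; line: mean of 2 pups). Trp63 in transgenic IFE, at 598 and 651 CPM, lies below the other 6 libraries, and the Ovol1 control pups lie apart in both populations.

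In transgenic IFE, Trp63, Tfap2a and Grhl2 were lower than in control IFE, and 0 of the 9 members were higher by the test. Over all genes tested in that comparison 1.35% were called lower, 4.99% higher and 6.34% in either direction at an adjusted p under 0.05 (edgeR quasi-likelihood test, Benjamini-Hochberg over 14176 genes). An unadjusted p under 0.05 was reached by 5 of 9 members, against 17.3% of all genes. The median log2 fold change was -0.63 over the members and -0.01 over all genes tested. The transgenic IFE libraries lay wholly below the controls for 5 members (Trp63, Tfap2a, Grhl2, Klf4 and Klf5), where 25.0% of all genes did so. They lay wholly above for Grhl1, where 27.9% of all genes did so. Immune markers moved in the same comparison, with 13 of 15 tested higher and 0 lower (median log2 fold change 4.15), and their part in these differences was not tested. With both libraries of pup 4 left out, with the 2 Rn45s-rich libraries left out, or with scaling by library size alone, 0 of the 9 members were called, and the fold changes of the 3 factors stayed below 0.

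In transgenic hair germ 0 of the 9 members were called against control hair germ, where 0.952% of all genes were. An unadjusted p under 0.05 was reached by 3 members, Grhl1, Grhl2 and Klf5, against 17.1% of all genes. The DESeq2 Wald test called 1 member, Grhl1, where it called 496 of the 14176 genes higher and 167 lower. The transgenic libraries lay wholly below the controls for Grhl2, Klf5 and Tfap2a, against 16.9% of all genes. They lay wholly above for Grhl1 and Grhl3, against 22.4% of all genes. The member median was -0.20 and that of all genes tested 0.04.

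**Figure D2:**
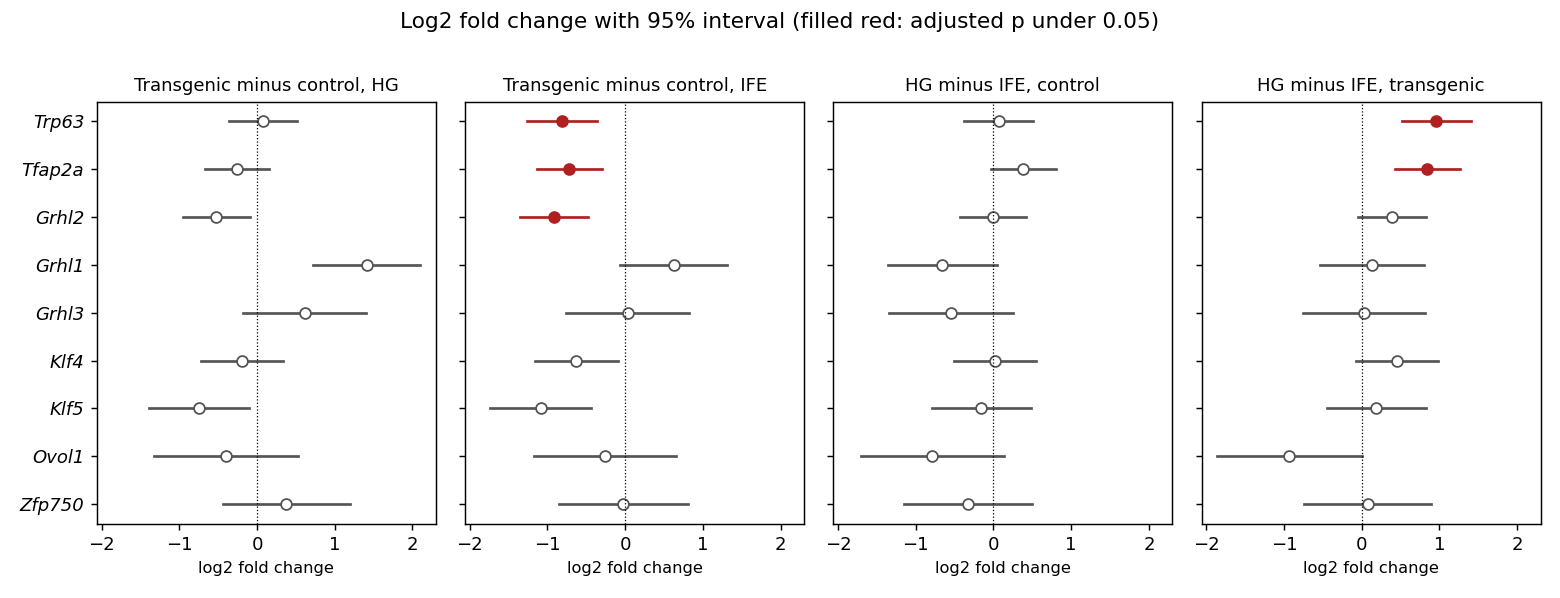
Log2 fold change of each factor (horizontal axis) with its 95% interval, 1 panel per comparison and 1 row per gene. Filled red points have an adjusted p under 0.05, which are Trp63, Tfap2a and Grhl2 for transgenic against control IFE and Trp63 and Tfap2a for hair germ against IFE in transgenic pups.

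Trp63 (chromosome 16, 25683763 to 25892102 on GRCm38) encodes the master factor of the list and had the largest difference of transgenic effect between the populations. In the IFE it stood at 1108 CPM in control pup 3 and 1089 in control pup 5, against 598 in transgenic pup 4 and 651 in transgenic pup 6. The group means were 1099 ± 13.6 and 625 ± 37.4 CPM, and both transgenic libraries lay below every other library in the series. The log2 fold change was -0.81 (SE 0.20, 95% interval -1.26 to -0.37, adjusted p = 0.0356). Its hair germ levels were 1231 and 1075 CPM in control pups 3 and 5 and 1339 and 1093 in transgenic pups 4 and 6. These libraries overlapped, and the log2 fold change was 0.08 with a 95% interval of -0.36 to 0.52 (adjusted p = 0.892). The transgenic effect in hair germ minus that in IFE was 0.89 (SE 0.29, unadjusted p = 0.00927), which did not pass over all genes (adjusted p = 0.400), so the effects were not shown to differ by edgeR. The DESeq2 Wald test put the same difference at an adjusted p of 0.0491. The IFE call was lost when any 1 of the 4 IFE or 2 transgenic hair germ libraries was left out (adjusted p = 0.0744 to 0.358), and the fold change stayed below 0 in all of those fits. Trp63 has 8 annotated transcripts, and a count per gene does not separate the TA and delta-N forms of p63.

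Tfap2a (chromosome 13, 40715302 to 40738376) followed Trp63 in direction in the IFE. It stood at 209 and 215 CPM in control IFE pups 3 and 5 and at 116 and 141 in transgenic pups 4 and 6. Both transgenic values lay below all other libraries, and the log2 fold change was -0.72 (SE 0.19, adjusted p = 0.0477). This was the weakest of the 3 calls. It was lost with DESeq2-style scaling (adjusted p = 0.0585), without the low-count filter (0.102) and without any single library other than hair germ control pup 5 (0.0520 to 0.638). Hair germ Tfap2a stood at 284 and 270 CPM in controls and at 232 and 231 in transgenic pups 4 and 6. Those pairs did not overlap, but the log2 fold change of -0.26 was not called (95% interval -0.68 to 0.16, adjusted p = 0.524).

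Klf5 (chromosome 14, 99298691 to 99315036) was lower in both transgenic groups without passing the edgeR threshold. In the IFE it stood at 327 and 620 CPM in control pups 3 and 5 and at 193 and 253 in transgenic pups 4 and 6. On the log2 scale the control pups lay 0.92 apart, almost as far as the groups. The log2 fold change of -1.09 (SE 0.30) had an adjusted p of 0.05002, just outside the threshold. The DESeq2 Wald test called it (adjusted p = 0.00966). Without IFE control pup 3 the log2 fold change was -1.41 and called (adjusted p = 0.0153), and without IFE control pup 5 it was -0.54 and not called (0.550). Hair germ Klf5 stood at 365 and 488 CPM in controls and at 285 and 223 in transgenic pups, which did not overlap (log2 difference -0.75, SE 0.29, adjusted p = 0.222).

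Among the grainyhead-like factors, Grhl2 fell in transgenic IFE, and the values of Grhl1 lay above the controls in both transgenic groups without a call. Grhl2 (chromosome 15, 37233036 to 37363569) stood at 244 and 203 CPM in control IFE pups 3 and 5 and at 124 and 112 in transgenic pups 4 and 6. The transgenic pair lay below all other libraries, and the log2 fold change was -0.92 (SE 0.20, adjusted p = 0.0172). Hair germ Grhl2 stood at 232 and 214 CPM in controls and at 162 and 148 in transgenic pups. The direction was the same, the libraries did not overlap, and the log2 fold change of -0.52 (SE 0.20) was not called (adjusted p = 0.205). The difference of the Grhl2 effects was 0.40 (95% interval -0.21 to 1.01, adjusted p = 0.816). The IFE call was lost without IFE control pup 3 (adjusted p = 0.144) and without either IFE transgenic pup (0.169 and 0.278).

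Grhl1 (chromosome 12, 24572283 to 24617391) stood at 20.9 and 30.2 CPM in control hair germ pups 3 and 5 and at 79.3 and 57.2 in transgenic pups 4 and 6. Both transgenic values were above both controls, and the log2 fold change of 1.41 was the largest of any member in any comparison (SE 0.32, 95% interval 0.72 to 2.10, adjusted p = 0.0591). That value was outside the edgeR threshold, and the DESeq2 Wald test gave an adjusted p of 0.00624. With edgeR and scaling by library size alone it was 0.0334, where 279 genes were called higher against 108 with TMM. Grhl1 was not called with DESeq2-style scaling, without the low-count filter, with the legacy test or with hair germ alone. In the IFE Grhl1 stood at 46.0 and 35.4 CPM in controls and at 74.3 and 50.8 in transgenic pups, again without overlap (log2 fold change 0.62, SE 0.31, adjusted p = 0.356). Grhl3 (chromosome 4, 135541888 to 135573630), the least abundant member in CPM, stood at 13.3 and 17.6 CPM in control hair germ and at 20.9 and 26.8 in transgenic hair germ. Those pairs did not overlap, and the log2 fold change was 0.61 (SE 0.36, adjusted p = 0.417). In the IFE its 4 libraries lay within 20.3 to 26.4 CPM and overlapped (log2 fold change 0.03, 95% interval -0.76 to 0.83).

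The ratio of reads of 2 members within a library does not depend on how libraries are scaled. These ratios were chosen after the fold changes were seen and are given as a description. Grhl1 reads were 9.03% and 14.2% of Grhl2 reads in control hair germ pups 3 and 5, and 49.0% and 38.7% in transgenic pups 4 and 6. In the IFE they were 18.9% and 17.4% in controls and 60.0% and 45.2% in transgenic pups. All 4 transgenic libraries thus lay above all 4 controls. In CPM Grhl1 already lay above and Grhl2 below all controls, so this separation adds no separate support. Grhl1 over Trp63 and Grhl3 over Grhl2 separated in the same way. Klf4 over Trp63, Klf5 over Klf4 and Tfap2a over Trp63 did not. Grhl2 reads were 18.8% and 19.9% of Trp63 reads in control hair germ against 12.1% and 13.5% in transgenic hair germ, while the IFE values of 22.0% and 18.7% in controls and 20.7% and 17.2% in transgenic pups overlapped. Grhl2 was thus lower relative to Trp63 in the transgenic hair germ libraries, and not separable from it in the IFE.

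**Figure D3:**
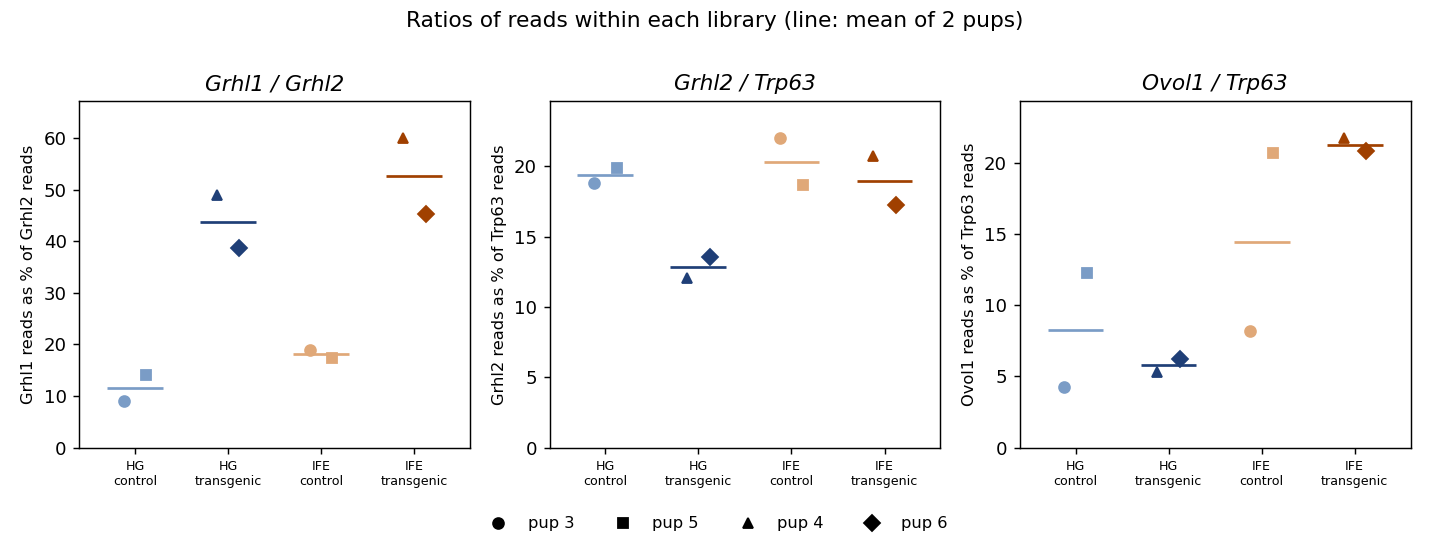
Reads of 1 factor as a percentage of the reads of another in each library, for Grhl1 over Grhl2, Grhl2 over Trp63 and Ovol1 over Trp63 (vertical axes: percent; points: single pups; line: mean of 2 pups). The Grhl1 over Grhl2 ratio is 38.7% to 60.0% in the transgenic libraries and 9.03% to 18.9% in the controls.

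The differentiation factors Klf4, Ovol1 and Zfp750 had no call in either population. Klf4 (chromosome 4, 55527143 to 55532466) stood at 520 and 790 CPM in control IFE pups 3 and 5 and at 431 and 418 in transgenic pups 4 and 6. The transgenic pair was lower and closer together, and the log2 fold change was -0.63 (SE 0.24, 95% interval -1.16 to -0.10, adjusted p = 0.188). Hair germ Klf4 stood at 779 and 554 CPM in controls and 614 and 547 in transgenic pups, which overlapped (log2 fold change -0.20, adjusted p = 0.724).

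Ovol1 (chromosome 19, 5549136 to 5560646) was the member with the widest gap between control pups. It stood at 52.5 and 132 CPM in control hair germ pups 3 and 5 and at 90.9 and 225 in control IFE. The transgenic values were 71.4 and 68.2 CPM in hair germ and 130 and 136 in IFE, between the controls in each population. The log2 fold changes of -0.40 in hair germ (95% interval -1.33 to 0.52) and -0.26 in IFE (-1.17 to 0.66) were not called (adjusted p = 0.672 and 0.873). Gm31166, on the opposite strand and not among the counted symbols, shares 690 of its exon bases, and no source used here gives the strand setting of the counting. Reads of the 2 genes cannot be told apart there if strand was ignored. The same limit holds for Tfap2a, which shares 265, 380 and 73 exon bases with 3 uncounted genes on the opposite strand, and for Grhl2, which shares 169 with 1.

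Zfp750 (chromosome 11, 121510978 to 121519333), the mouse counterpart of a p63-induced differentiation factor, stood at 41.8 and 27.0 CPM in control hair germ and 58.3 and 30.3 in transgenic hair germ. In the IFE it stood at 54.2 and 32.9 CPM in controls and at 46.1 and 38.6 in transgenic pups. The groups overlapped in both populations, and the log2 fold changes were 0.38 (95% interval -0.44 to 1.19) and -0.03 (-0.85 to 0.80). Neither was called (adjusted p = 0.649 and 0.996).

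The levels of the members were set beside those of the basal markers, whose summed level was also lower in the transgenic libraries. Per 10000 reads of the 8 basal keratinocyte genes, Trp63 had 337 and 306 reads in control IFE pups 3 and 5 and 365 and 392 in transgenic pups 4 and 6. The hair germ values were 417 and 420 in controls and 662 and 662 in transgenic pups. All 8 basal genes had fold changes below 0 in both populations, which raises genes that did not fall as far on this scale. Relative to them Trp63 was higher in the transgenic libraries of both populations, though its hair germ log2 fold change was 0.08. Tfap2a had 63.4 and 60.3 in control IFE against 70.8 and 85.0 in transgenic IFE, and 96.2 and 105 against 114 and 140 in hair germ. Grhl2 had 74.0 and 57.2 in control IFE against 75.6 and 67.7 in transgenic IFE, which overlapped, and 78.5 and 83.5 against 79.9 and 89.5 in hair germ, which also overlapped. Grhl1 had 14.0 and 9.95 in control IFE against 45.4 and 30.6 in transgenic IFE, and 7.08 and 11.8 against 39.2 and 34.6 in hair germ. Klf4, wholly lower in transgenic IFE in CPM, had 158 and 222 in control IFE against 263 and 252 in transgenic IFE. Klf5 had 99.2 and 174 against 118 and 152 there, which overlapped. On this scale transgenic libraries lay wholly above controls for 7 of 9 members in the IFE and 6 of 9 in hair germ. The others overlapped, and 0 lay wholly below. No share over all genes was computed on this scale, so these counts are not a result about the members. Because the basal genes were lower in the transgenic libraries, a gene level in CPM rises on it. Zfp750, with an IFE log2 fold change of -0.03, had 16.4 and 9.23 in control IFE against 28.1 and 23.3 in transgenic IFE. The direction for Trp63, Tfap2a and Klf4 in the IFE therefore depended on whether all genes or the basal genes set the scale, and that for Grhl1 did not. The largest basal genes were Krt5 and Krt14, at 14429 and 10379 CPM in control IFE against a list sum of 32935 to 35587. Of the 8 basal genes, 4 also belong to the list of textbook p63 targets given below. This scale is thus not a neutral measure of keratinocyte content. The basal list holds Krt14, whose promoter drives K14rtTA, and no test was made on these values.

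**Figure D4:**
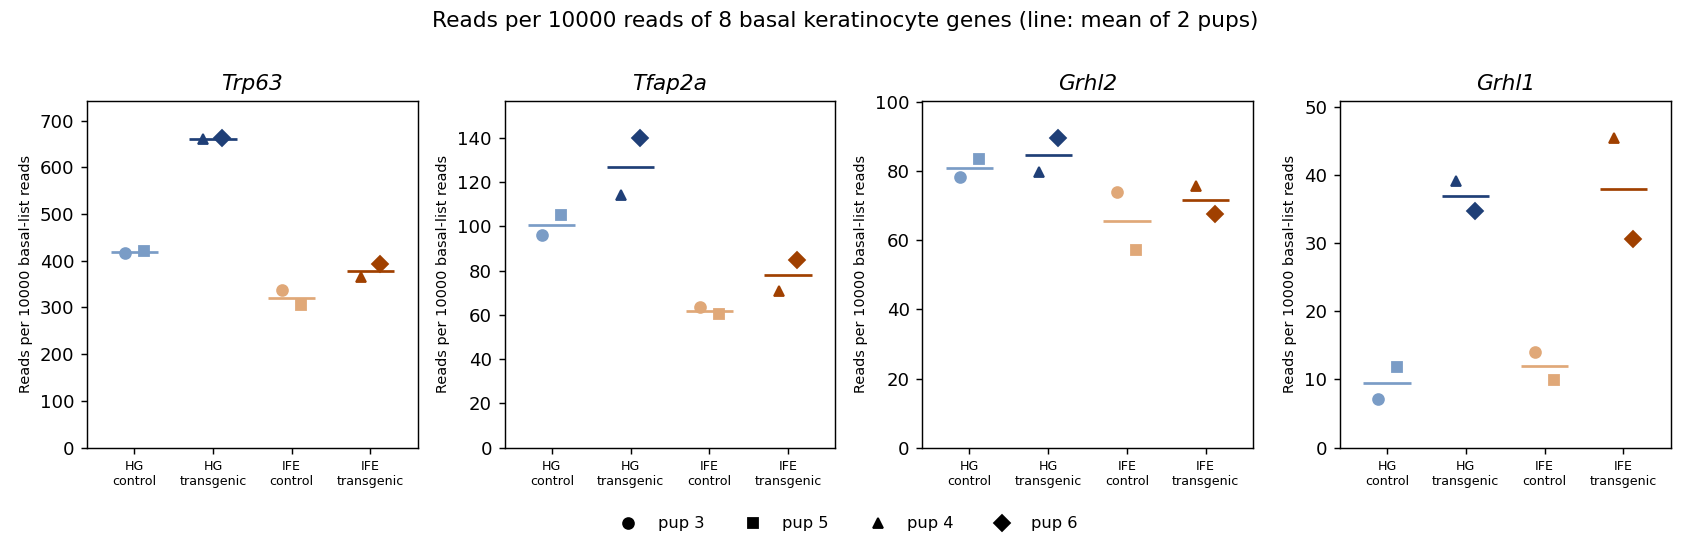
Reads of Trp63, Tfap2a, Grhl2 and Grhl1 per 10000 reads of the 8 basal keratinocyte genes in every library (vertical axes; points: single pups; line: mean of 2 pups). Trp63 lies at 306 and 337 in control IFE and at 365 and 392 in transgenic IFE, the reverse of its order in CPM.

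Among 19 textbook p63 targets, all tested, 8 fell and 0 rose in transgenic against control IFE, and all 19 fold changes were below 0 (median -0.80, against -0.01 for all genes). Of all genes tested 1.35% were called lower. The list was chosen with earlier results of these data known, so its counts beside all genes are a description. With scaling by library size alone 1 of the 19 fell, and 19 of 19 were below 0. In the same comparison 13 of 15 immune markers rose, and their part in these values was not tested. Fras1, an extracellular matrix protein of the dermal-epidermal junction, stood at 853 ± 62.0 CPM in controls and fell to 278 ± 12.5 CPM (-1.61 on the log2 scale, SE 0.27, adjusted p = 0.00321). Perp, a desmosome component, fell from 1400 ± 87.7 to 657 ± 6.20 CPM (-1.09, adjusted p = 0.00973). Fgfr2, a receptor for keratinocyte growth factors, fell from 901 ± 18.3 to 493 ± 37.7 CPM (-0.87, adjusted p = 0.0170). Itgb4, Satb1, Dsg3, Lamb3 and Krt14 also fell (named to complete the count, after their values were seen), and 4 of the 19 targets belong to the 8 basal markers too. Without both libraries of pup 4 the median was -0.71 with 19 of 19 below 0, and without the Rn45s-rich libraries it was -0.80 with 18 of 19 below 0, with 0 of 19 called in each. Leaving out single libraries gave 1 to 9 falls. In the hair germ 0 of the 19 passed (median -0.36), where 0.952% of all genes did. Of the 19, 6 had an unadjusted p under 0.05, against 17.1% of all genes. DESeq2 called 2 of them, where it called 496 of the 14176 genes higher and 167 lower. For the difference between populations 0 of 19 passed, where 0.134% of all genes did. An unadjusted p under 0.05 was reached by 3 of the 19, against 8.09% of all genes. DESeq2 called 0 of them for the difference, where it called 25 genes higher and 152 lower. These targets were thus not shown to respond differently.

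Of 37 other epidermal transcription factors tested, 2 rose and 2 fell in transgenic IFE, and 0 passed in transgenic hair germ. The share that rose is near that of all genes tested, 4.99%. Of all genes 1.35% were called lower in IFE, and 0.952% in either direction in hair germ. Rbpj, the DNA-binding partner of Notch, rose from 110 ± 9.63 to 248 ± 7.22 CPM (1.17 on the log2 scale, adjusted p = 0.00916). Maf, which acts in late keratinocyte differentiation and also in macrophages, rose from 15.6 ± 12.7 to 60.0 ± 13.5 CPM (2.03, adjusted p = 0.0384). Pou2f3, a POU factor of the suprabasal layers, fell from 221 ± 62.1 to 111 ± 9.95 CPM (-0.99, adjusted p = 0.0246). Satb1, a chromatin organiser that is also in the p63 target list, fell from 321 ± 46.1 to 173 ± 5.75 CPM (-0.89, adjusted p = 0.0310). The summed immune marker level was 3025 to 3863 CPM in the same transgenic IFE libraries, and its part in the Rbpj and Maf values was not tested. The list's median was -0.33 in IFE and 0.01 in hair germ, and 0 of its members passed in IFE once pup 4, or the Rn45s-rich pair, was left out. The 0 in hair germ stands beside 6 at an unadjusted p under 0.05, where 17.1% of all genes reached it. DESeq2 called 2 there, where it called 496 of the 14176 genes higher and 167 lower.

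Of 24 differentiation genes tested, 1 rose and 0 fell in each population, and it was the same gene. Of all genes tested 0.762% were called higher in hair germ and 4.99% in IFE, so a single rise among the list in the IFE is near the background. Abca12, the lipid transporter of the skin barrier, rose from 32.2 ± 0.276 to 108 ± 8.42 CPM in hair germ (1.75 on the log2 scale, SE 0.31, adjusted p = 0.0281). In the IFE it rose from 42.7 ± 20.2 to 94.8 ± 16.7 CPM (1.17, SE 0.31, adjusted p = 0.0466). The list medians were 0.51 and 0.41. Leaving out pup 4, or the Rn45s-rich libraries, left 0 passing in either population.

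Between the sorted populations of control pups 0 of the 9 members were called, where 0.00705% of all genes, 1 gene, was. By DESeq2 0 members were called, where 39 of the 14176 genes were called higher and 110 lower. By edgeR 0 members had an unadjusted p under 0.05, against 8.46% of all genes. Tfap2a was the member whose hair germ libraries lay wholly above the IFE libraries (log2 difference 0.39, 95% interval -0.03 to 0.80). Grhl1 (-0.66, 95% interval -1.35 to 0.04) and Grhl3 (-0.55, -1.35 to 0.25) lay wholly below. Libraries separated in this way for 14.2% of all genes upward and 19.2% downward. Ovol1 had the largest difference (-0.78, 95% interval -1.70 to 0.14, adjusted p = 0.631), and was lower in hair germ than in IFE within each control pup, at 52.5 against 90.9 CPM in pup 3 and 132 against 225 in pup 5. With the pup as a block its adjusted p was 0.193. Trp63 differed by 0.07 with a 95% interval of -0.37 to 0.51.

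Between the populations of transgenic pups Trp63 and Tfap2a were higher in hair germ, 2 of 9 members, where 0.882% of all genes were called higher, 3.76% lower and 4.64% in either direction. Trp63 stood at 1339 and 1093 CPM in hair germ pups 4 and 6 and at 598 and 651 in the IFE of the same pups (log2 difference 0.96, SE 0.20, adjusted p = 0.0202). Tfap2a stood at 232 and 231 CPM against 116 and 141 (0.85, SE 0.19, adjusted p = 0.0285). Grhl2 and Klf4 also lay wholly higher in hair germ without a call, as 26.4% of all genes did. Ovol1 lay wholly lower, as 28.9% of all genes did, at 71.4 and 68.2 CPM in hair germ against 130 and 136 in IFE. Its log2 difference of -0.93 was not called (adjusted p = 0.270), but passed when the pup, from which both populations came, was fitted as a block (-0.93, adjusted p = 0.0147, where 1019 genes passed against 658). Ovol1 reads were 5.33% and 6.24% of Trp63 reads in transgenic hair germ and 21.7% and 20.9% in transgenic IFE, against 4.27% and 12.3% in control hair germ and 8.20% and 20.7% in control IFE. The Trp63 and Tfap2a calls were lost when any 1 of the 4 transgenic libraries was left out (adjusted p = 0.111 to 0.251 and 0.146 to 0.472), and also when pup 4 or the Rn45s-rich pair was left out. This comparison shares its transgenic libraries with the transgenic against control comparisons.

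Of the 37 other epidermal transcription factors, 1 was higher and 4 lower in transgenic hair germ than in transgenic IFE, where 0.882% of all genes were called higher and 3.76% lower. Gata3, a factor of the inner root sheath and epidermis, was higher by 1.14 on the log2 scale (adjusted p = 0.0255). Rbpj (-1.38, adjusted p = 0.00512), Cebpb (-1.09, 0.0284) and Maf (-2.00, 0.0452) were among those lower, and the immune markers were lower as well, 12 of 15. With the pup block the counts were 4 higher and 6 lower, where 271 of all genes were called higher and 748 lower, against 125 and 533 without it. In control pups 0 of the 37 passed, with 2 at an unadjusted p under 0.05, against 8.46% of all genes. DESeq2 called 0 of them, where it called 39 genes higher and 110 lower.

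Across all members 0 of 9 passed the test of whether the transgenic effect differed between hair germ and IFE, where 0.134% of all genes, 19, did. Trp63 was the member with an unadjusted p under 0.05, against 8.09% of all genes. The 95% intervals of the difference were -0.18 to 1.76 for Grhl1, -1.45 to 1.15 for Ovol1, -0.21 to 1.01 for Grhl2 and -0.13 to 1.05 for Tfap2a.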

How the data were processed

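TopHat, HTSeq and DESeq2, with builds mm10 and GRCm38, are named in the submitters' processing notes. No source used here gives versions or the strand setting. Per the labels, sorted cells went into Trizol, and a SMARTer stranded low-input kit made the libraries from total RNA. The deposited files hold raw HTSeq counts per gene symbol. Of the reads recorded, 57.6% to 76.6% named no gene and stayed out. A second deposited table of normalised signal was the same counts over 1 constant in each library (23406 shared names) and served only for that check. edgeR 4.0.16 (R 4.3.3) fitted 4 group means over all 8 libraries after TMM scaling and filterByExpr, with glmQLFit (legacy set to FALSE) and glmQLFTest, two-sided, adjusted by Benjamini-Hochberg over 14176 genes with a threshold of 0.05. The SE was derived as the size of the log2 fold change divided by the root of F and is not the spread between pups, and intervals are 95%. DESeq2 1.42.0 was an alternative. Scripts were tested on simulated counts.

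The members and gene lists were chosen with earlier results of these data known. Genes outside the members were named as up to 3 per list, comparison and direction with the smallest p past the threshold, with the sorting gene Cdh3, cell type markers at 0 and, per member, the genes of most similar pattern. Other list genes are named to complete a count, and the text says so. A further gene is not reported here. Per the labels a pup number marks the same animal in both populations, so populations are paired and genotypes are not. The deviations of a pup from its group mean correlated across genes at 0.117 in controls and 0.0868 in transgenic pups. Alternatives were scaling, the filter, DESeq2, the legacy test, 1 population alone, the pup block and leaving out libraries. Exon lengths, positions and UTRs came from GRCm38 gene models, microRNAs from RefSeq.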

Additional observations from a re-analysis of the deposited data

How the results depend on the processing

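The log2 fold changes of Trp63, Grhl2 and Tfap2a in the IFE stayed below 0, and those of Trp63 and Tfap2a between transgenic populations above 0, under every alternative run, but their calls did not. Members called in the IFE (3) were 0 with library size alone, 1 with the legacy test, 0 without both libraries of pup 4, 0 without the 2 libraries rich in Rn45s and 1 with the IFE alone. In hair germ (0) they were 1 with library size alone and 1 with DESeq2. Between transgenic populations (2) they were 0 with library size alone, 0 without pup 4 and 0 without the Rn45s-rich libraries. For the difference of effects (0) DESeq2 gave 1. Leaving out each library in turn gave 0 to 4 members in IFE, 0 to 1 in hair germ and 0 to 2 between transgenic populations. A left-out library leaves 1 sample in its group, assumed to vary like the others.

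Genes called in hair germ (135) were 316 with library size alone, 663 with DESeq2, 54 with the legacy test, 1 without pup 4, 20 without the Rn45s-rich libraries and 22 with hair germ alone, and 14 to 345 leaving out single libraries. In IFE (899) they were 541 with the legacy test, 207 without pup 4 and 195 without the Rn45s-rich libraries, and 305 to 1208 leaving out single libraries. Between control populations (1) they were 2 with DESeq2-style scaling, 29 with library size alone, 3 without the filter, 149 with DESeq2, 6 with the legacy test, 0 without the Rn45s-rich libraries and 7 with the replicate block, and 0 to 122 leaving out single libraries. Between transgenic populations (658) they were 336 with the legacy test, 0 without pup 4, 193 without the Rn45s-rich libraries and 1019 with the replicate block, and 47 to 1026 leaving out single libraries. For the difference (19) they were 97 with library size alone, 45 without the filter, 177 with DESeq2, 2 with the legacy test, 0 without pup 4, 0 without the Rn45s-rich libraries and 86 with the replicate block, and 0 to 192 leaving out single libraries. The replicate block changed no member call other than that of Ovol1. Library size alone moved the median of all genes from -0.01 to 0.15 in IFE, from -0.04 to 0.26 between control populations, from 0.02 to 0.20 between transgenic populations and from 0.06 to -0.07 for the difference. It split the IFE calls into 868 higher and 42 lower, against 707 and 192, and the control population calls into 23 and 6, against 1 and 0.

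Signs turned only for members not called. In IFE Zfp750 (-0.03) was 0.0099 with DESeq2-style scaling, 0.15 with library size alone, 0.0287 without the filter, 0.0003 with DESeq2 and 0.25 without the Rn45s-rich libraries, and Grhl3 was -0.10 without pup 4 and -0.11 without the Rn45s-rich libraries. In hair germ Trp63 was -0.10 and Zfp750 -0.20 without pup 4. Between control populations Grhl2 was 0.02 with DESeq2-style scaling (0.0179), without the filter (0.0187), with DESeq2 (0.0178) and without pup 4 (0.0176), 0.33 with library size alone and 0.14 without the Rn45s-rich libraries. Library size alone gave 0.12 for Klf5 and 0.0296 for Zfp750 there, and leaving out the Rn45s-rich libraries gave -0.24 for Klf4 and 0.0599 for Zfp750. Between transgenic populations Grhl3 was -0.0082 without the filter, Klf5 -0.24 and Zfp750 -0.41 without pup 4, and Klf5 -0.013 without the Rn45s-rich libraries. For the difference Klf5 was -0.11 and Zfp750 -0.11 without pup 4, and Ovol1 0.28 without the Rn45s-rich libraries. Leaving out single libraries gave, between control populations, Grhl2 -0.13 to 0.16, Klf4 -0.22 to 0.36, Klf5 -0.51 to 0.38, Ovol1 -1.60 to 0.0237 and Zfp750 -0.66 to 0.0896. Between transgenic populations it gave Grhl1 -0.17 to 0.42, Grhl3 -0.19 to 0.21, Klf5 -0.0486 to 0.37 and Zfp750 -0.53 to 0.43. In hair germ it gave Klf4 -0.43 to 0.0199, Ovol1 -0.96 to 0.41, Trp63 -0.11 to 0.19 and Zfp750 -0.22 to 0.74. In IFE it gave Grhl3 -0.15 to 0.25, Ovol1 -0.70 to 0.56 and Zfp750 -0.35 to 0.42, and for the difference Klf5 -0.20 to 0.66, Ovol1 -0.96 to 0.66 and Zfp750 -0.22 to 0.74. The cause of these changes was not tested.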

Other observations

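The control pups differed in Ovol1 in the same direction in both populations. The level in control pup 5 was 2.51 times that in control pup 3 in hair germ and 2.48 times in IFE. Of 7365 genes whose log2 CPM averaged 4 or more, 36 (0.489%) had a ratio at least as large as the smaller of these in both populations. Klf5 was higher in pup 5 (1.34 and 1.90 times), where 8.96% of the 7365 genes reached at least its smaller ratio in both populations. Zfp750 was lower (0.647 and 0.607 times), and no share of genes was computed in that direction. Trp63 (0.873 and 0.983 times) and Tfap2a (0.949 and 1.03 times) were close to equal. These pups differ in genotype, and each gave 1 library per population, so pup and genotype cannot be told apart.

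Over the 8 libraries, which come from 4 pups and share groups, the log2 CPM of Trp63 and Tfap2a had a Pearson r of 0.92. Grhl1 had an r of -0.68 with Grhl2 and 0.79 with Grhl3. Among 7179 named genes above the same level, the pattern most like that of Trp63 was Akap8 (r = 0.98), and that most like Tfap2a was Smoc2 (0.99). For Grhl2 it was Tubgcp6 (0.98), for Grhl1 Ilvbl (0.97), for Grhl3 Dcaf17 (0.99), for Klf4 Cep170b (0.96), for Klf5 Rbbp6 (0.98), for Ovol1 Ifrd1 (0.99) and for Zfp750 Dus1l (0.97). These values are a description and carry no p.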
